A study of Mus musculus with 8 samples.

Results

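The genes described here make cholesterol and fatty acids, or control that synthesis. They were chosen by name: 18 enzymes of sterol synthesis, 6 genes of sterol sensing and transport, 9 enzymes that make, desaturate or elongate fatty acids, and Tm6sf2, a gene of lipid export. Of these 34 genes 33 had a probe set that names that gene alone, among 19936 genes tested, and Acat2 had none. Their RNA was measured on 8 Affymetrix arrays, each with whole-kidney RNA of a female mouse bred on mixed C57BL/6 - SV127 stock. The labels give 4 arrays as mutant, with the genotype Pax8-rtTA;LC-1;Vhl-floxed, and 4 as littermate controls whose own alleles they do not give. In this system Pax8-rtTA is active in kidney tubule epithelium, and with doxycycline it switches on the Cre recombinase carried by LC-1, which cuts the floxed Vhl gene. All 8 mice, controls included, drank doxycycline (0.2 mg/ml with 5% sucrose) for 2 weeks from 3 weeks of age, then plain water for 1 week, and their kidneys were taken at 6 weeks.

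The targeted gene and its pathway ran against the labels. Vhl, whose protein marks the oxygen-sensing transcription factor HIF for destruction, averaged 8.34 ± 0.0909 log2 units (SD, n = 4) in the arrays labelled mutant and 8.05 ± 0.118 (SD, n = 4) in those labelled control. The difference was 0.29 (limma adjusted p = 0.0387), and it did not pass with the replicate block (0.0558) or when any of mutant arrays 2, 3 and 4 or control arrays 1, 2 and 3 was dropped (0.0785 to 0.114). Whether its single probe set lies in the deleted part of the gene is not given in the sources used here, so it cannot settle the genotype. All 10 genes of a list of HIF targets fell in the arrays labelled mutant, Egln3 with a log2 difference of -2.96 and Vegfa of -0.84. For that reason every group below is named by its label, and no direction below is given as an effect of losing Vhl. If the labels were exchanged, which the files used here do not settle, each rise and fall below would turn round. All 9 endothelial markers fell too, among them Kdr (-0.90, limma adjusted p = 0.00159), Cdh5 (-0.84, adjusted p = 0.000272) and Tie1 (-0.75, adjusted p = 0.000454), with a list mean per array of 9.85 to 9.96 in the arrays labelled mutant against 10.50 to 10.68 in the arrays labelled control. Each of these HIF targets and endothelial markers passed as lower (limma adjusted p under 0.05), as did 4.64% of all genes. In whole-kidney RNA, fewer cells of a type and less RNA per cell cannot be told apart. Array medians lay between 7.55 and 7.58, and log2 differences had a median standard error of 0.0718 over all genes. That error depends on the spread of a gene's values within the groups as well as on the number of arrays. The labels do not say how the mice relate beyond being littermates, so the p-values measure the spread between these 8 animals.

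Cholesterol is built from acetyl-CoA through mevalonate, isoprenoid units, squalene and lanosterol, and fatty acids are built from the same acetyl-CoA by a separate set of enzymes. Both sets are switched on by the SREBP transcription factors, SREBP-2 mainly for sterols and SREBP-1c mainly for fatty acids. When endoplasmic reticulum membranes hold much cholesterol, the INSIG proteins keep the SREBP escort SCAP there and synthesis falls. When they hold little, SCAP carries SREBP to the Golgi, where proteases release the active factor. Kidney tubule cells are rich in membrane and also take up cholesterol carried by lipoproteins.

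Of the 33 measured genes 7 were higher in the arrays labelled mutant by limma (adjusted p under 0.05 over all genes) and 0 were lower. They were the sterol enzymes Sqle, Msmo1, Idi1 and Hsd17b7, the sterol sensor Insig1, the desaturase Fads1 and Tm6sf2. Over all 19936 genes 7.23% passed that test, 2.59% with a higher and 4.64% with a lower value on the arrays labelled mutant. The sterol enzymes had a median log2 difference of 0.22, the fatty acid enzymes 0.11, the regulators 0.03 and all genes tested 0.03. Among the sterol enzymes 16 of 17 differences were above 0, and among the fatty acid enzymes 7 of 9, while over all genes 11587 of 19936 were. The groups did not overlap, with every array labelled mutant above every array labelled control, for 10 of the 33, where 6.57% of all genes had that pattern, and for 0 of the 33 in the opposite direction, where 8.20% had it (14.8% in either direction).

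Several of these calls lay close to the threshold. Dropping any 1 array left between 4 and 7 of the 33 higher, and Msmo1, Sqle, Fads1 and Tm6sf2 passed each time. In the same fits the log2 differences of the other 3 stayed at 0.39 to 0.58 for Idi1, 0.35 to 0.46 for Hsd17b7 and 0.62 to 0.94 for Insig1, while their calls were lost in most of these fits. Arrays 1 and 2 of those labelled mutant differed from arrays 3 and 4 in other genes, such as the leukocyte gene Ptprc, named after its values were seen, which read 8.26, 8.27, 7.39 and 7.31 there, against 8.14, 8.20, 8.09 and 7.82 in the arrays labelled control. Without mutant arrays 1 and 2, 6 of the 33 were higher, and Insig1, at 0.68, did not pass (limma adjusted p = 0.147). Without mutant arrays 3 and 4, Msmo1, Fads1 and Tm6sf2 were the 3 still higher and Scd2 was lower, while Sqle (0.83, adjusted p = 0.0670), Idi1 (0.32, adjusted p = 0.0964), Hsd17b7 (0.305, adjusted p = 0.132) and Insig1 (0.91, adjusted p = 0.0638) kept their direction and did not pass. In that fit 1561 genes passed over all genes, 676 of them higher, against 1442 and 517 with all arrays.

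**Figure D1:**
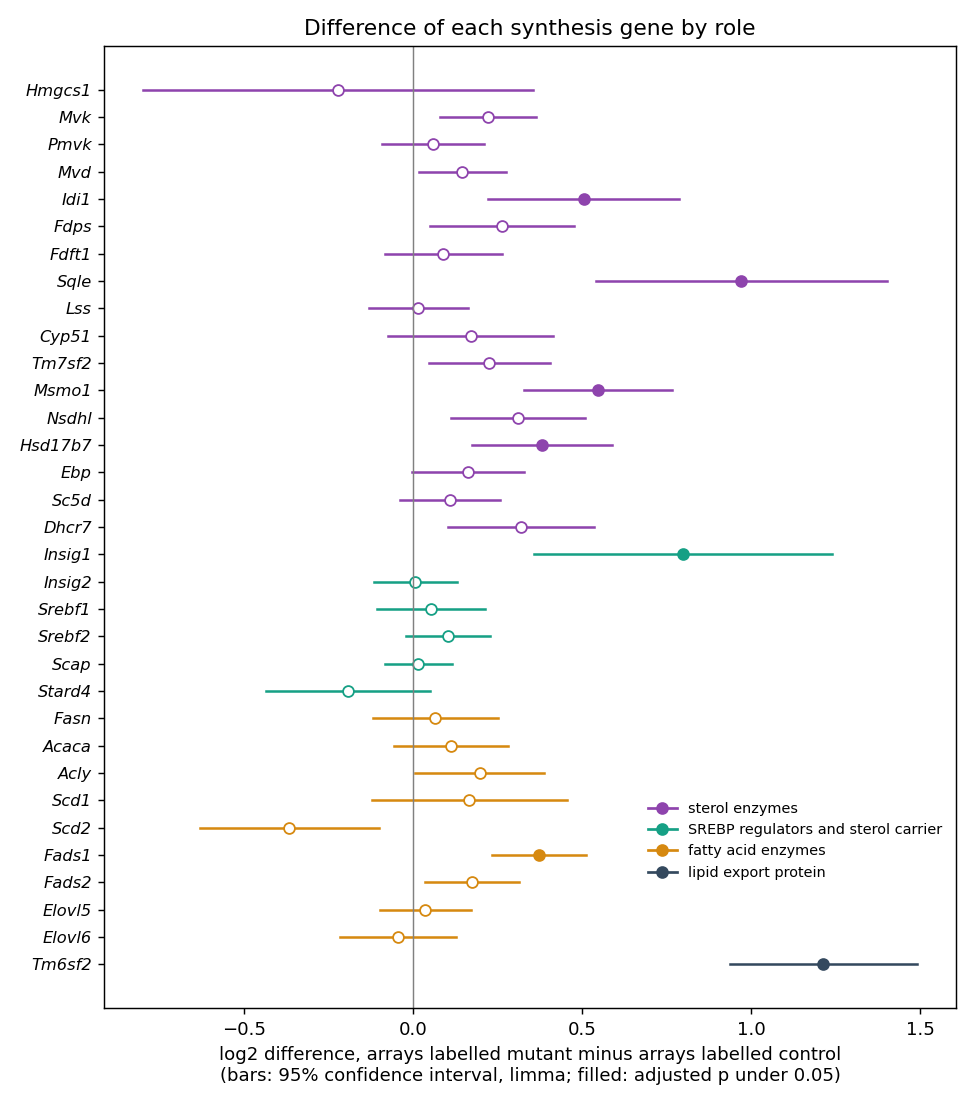
Log2 difference (horizontal axis, arrays labelled mutant minus arrays labelled control) of the 33 measured genes, listed by role down the page, with 95% confidence intervals from limma. Filled points passed at an adjusted p under 0.05: Idi1, Sqle, Msmo1, Hsd17b7, Insig1, Fads1 and Tm6sf2 lie to the right of 0, and Hmgcs1, Stard4, Scd2 and Elovl6 are the open points to the left.

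The largest rise among the sterol enzymes was that of Sqle, squalene epoxidase, which puts the oxygen into squalene before it is closed into the ring system and is a rate-limiting step of the pathway. Its log2 values were 9.93, 9.68, 10.26 and 9.91 in the arrays labelled mutant, against 8.63, 8.88, 8.80 and 9.58 in the arrays labelled control. The groups did not overlap, but control array 4 stood close to mutant array 2. The log2 difference was 0.97 ± 0.193 (standard error), a 1.96-fold higher level, with a limma adjusted p = 0.0144. The call held in all 8 fits that left out a single array (adjusted p 0.00116 to 0.0487), and was lost without mutant arrays 3 and 4 together (0.0670).

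Msmo1, the methylsterol oxidase that acts on methyl groups of the sterols formed after lanosterol, rose with less spread. It read 8.90, 9.14, 9.40 and 9.11 in the arrays labelled mutant, against 8.51, 8.62, 8.72 and 8.53 in the arrays labelled control. Every array labelled mutant lay above every array labelled control. This was a log2 difference of 0.55 ± 0.0984 (standard error), 1.46-fold, with a limma adjusted p = 0.00901, and all 18 alternative fits kept the call. Hsd17b7, the reductase that acts on the keto group left at that stage, read 9.32, 9.67, 9.67 and 9.63 in the arrays labelled mutant, against 9.09, 9.10, 9.20 and 9.37 in the arrays labelled control. Here the groups overlapped, since control array 4 read above mutant array 1. Its log2 difference was 0.38 ± 0.0932 (standard error), with a limma adjusted p = 0.0368. This call did not survive dropping any of mutant arrays 2, 3 and 4 or control arrays 1, 2 and 3 (0.0852 to 0.107).

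Idi1, isopentenyl diphosphate isomerase, which makes the reactive isoprenoid unit from which longer chains grow, had values of 8.64, 8.67, 9.19 and 8.84 in the arrays labelled mutant, against 8.33, 8.20, 8.57 and 8.23 in the arrays labelled control. The groups did not overlap, although mutant array 1 and control array 3 were close. The log2 difference was 0.50 ± 0.126 (standard error), with a limma adjusted p = 0.0407. A further probe set that names Idi1 gave nearly the same values on every array and a difference of 0.55. Whether those probe sets share probes is not given, so they are not counted as separate measurements. Dropping any of mutant arrays 2, 3 and 4 or control arrays 1, 2 and 4 ended the call (0.0538 to 0.115).

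**Figure D2:**
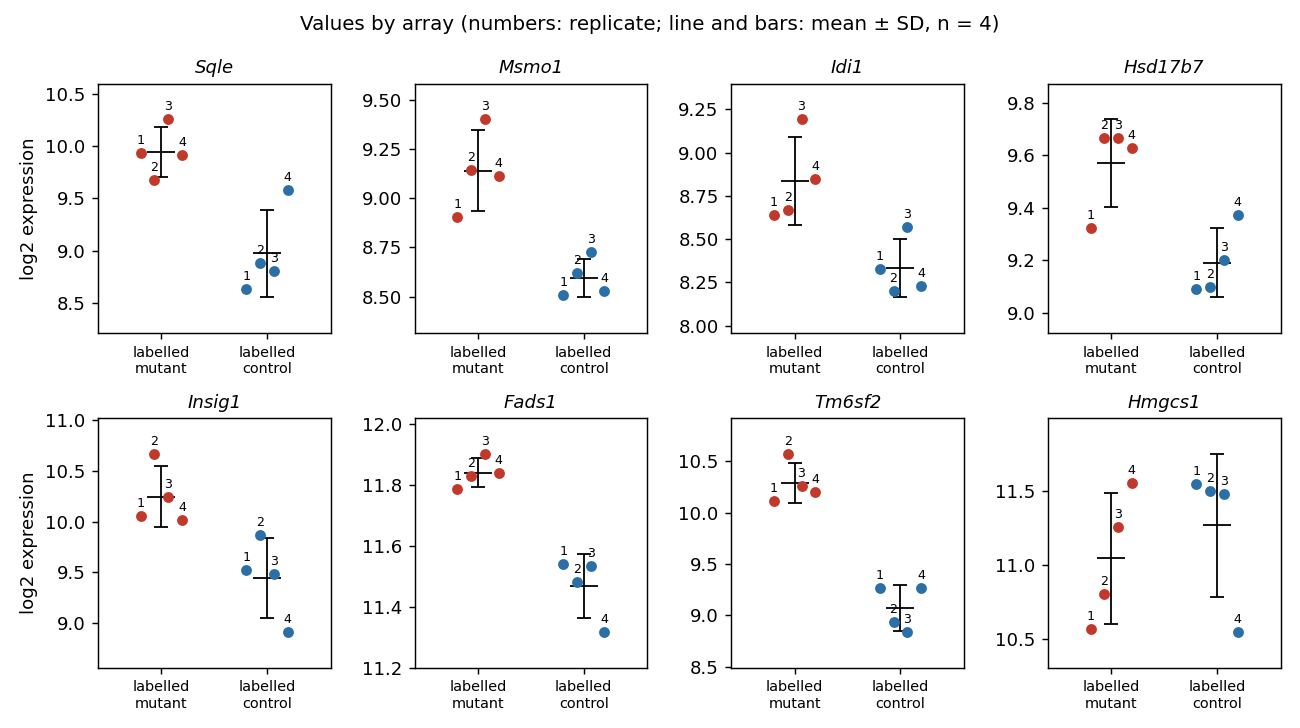
Log2 expression (vertical axis, a separate scale for each gene) on each array for the 7 genes that passed and for Hmgcs1, with arrays labelled mutant at left and arrays labelled control at right. Numbers give the replicate, and lines and bars the mean and SD of 4 arrays. Sqle, Msmo1, Idi1, Insig1, Fads1 and Tm6sf2 show separate groups, Hsd17b7 overlaps through mutant array 1 and control array 4, and Hmgcs1 overlaps fully.

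The remaining steps from acetyl-CoA to farnesyl diphosphate did not pass the test. Hmgcs1, which makes the HMG-CoA from which mevalonate is formed, had the largest standard error of the set (0.259). It read 10.57, 10.81, 11.25 and 11.56 in the arrays labelled mutant, against 11.55, 11.50, 11.48 and 10.55 in the arrays labelled control. The groups spanned the same range, and control array 4 sat far below the other control arrays. Its log2 difference was -0.22 (95% interval -0.80 to 0.36, limma adjusted p = 0.655), and -0.46 without control array 4 (adjusted p = 0.218). Without mutant arrays 1 and 2 it was 0.14 (adjusted p = 0.870). Mvk, mevalonate kinase, had separate groups, 8.83 to 9.05 in the arrays labelled mutant and 8.61 to 8.77 in the arrays labelled control, but a difference of 0.22 that missed the threshold (adjusted p = 0.0676). It passed after quantile normalization (0.0282) and among the upper 60% of genes by mean (0.0389). Mvd, the decarboxylase that yields isopentenyl diphosphate, also had separate groups (9.25 to 9.37 against 9.05 to 9.24), with a difference of 0.14 and an adjusted p = 0.181. Fdps, farnesyl diphosphate synthase, differed by 0.26 (adjusted p = 0.142) and Pmvk, phosphomevalonate kinase, by 0.06 (adjusted p = 0.655), both with overlapping groups.

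The enzymes on either side of squalene epoxidase did not pass the test. Fdft1, squalene synthase, read 10.08 to 10.42 in the arrays labelled mutant and 10.09 to 10.27 in the arrays labelled control, a difference of 0.09 (95% interval -0.08 to 0.26, limma adjusted p = 0.539). Its other probe set gave 0.06. Lss, lanosterol synthase, which closes the rings, read 8.73 to 8.94 against 8.68 to 8.86, a difference of 0.01 (95% interval -0.13 to 0.16, adjusted p = 0.916).

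All 8 enzymes after lanosterol had differences above 0, with a median of 0.27, and Msmo1 and Hsd17b7 were the 2 that passed. Nsdhl, the dehydrogenase that works in the same demethylation complex as these 2, had separate groups. It read 10.60, 10.74, 10.90 and 10.58 in the arrays labelled mutant, against 10.50, 10.36, 10.49 and 10.22 in the arrays labelled control. Its difference of 0.31 did not pass (limma adjusted p = 0.0674), but it passed with the replicate number as a block (0.0344). It also passed after quantile normalization (0.0440), among the upper 60% of genes by mean (0.0451) and with the trended and robust variance model (0.0418). Dhcr7, the reductase of the last step to cholesterol, read 9.28, 9.29, 9.43 and 9.02 in the arrays labelled mutant, against 9.002, 9.03, 8.99 and 8.72 in the arrays labelled control. Only mutant array 4 lay inside the control range. The difference of 0.32 had an adjusted p = 0.0824, which was 0.0168 with the replicate block, 0.0474 after quantile normalization and 0.0310 without mutant array 4. Tm7sf2, a sterol reductase, differed by 0.22 (adjusted p = 0.135), Cyp51, the lanosterol demethylase, by 0.17 (0.397), Ebp, the sterol isomerase, by 0.16 (0.238) and Sc5d, the sterol desaturase, by 0.11 (0.372). For these 4 the groups overlapped.

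Insig1, the endoplasmic reticulum protein that holds SCAP back and whose own gene SREBP activates, rose as well. It read 10.06, 10.66, 10.24 and 10.02 in the arrays labelled mutant, against 9.52, 9.87, 9.48 and 8.91 in the arrays labelled control. The groups did not overlap, with control array 4 the lowest of the 8 and mutant array 2 the highest. Its rise was 0.80 ± 0.198 log2 units (standard error), 1.74-fold, with a limma adjusted p = 0.0387. Dropping mutant array 2 or 3, or else control array 1, 3 or 4, ended the call (0.0540 to 0.0999), as did a trended and robust variance model (0.0700).

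The other 5 genes of sterol sensing and transport did not pass the test. Insig2, the related retention protein, differed by 0.01 (95% interval -0.12 to 0.13, limma adjusted p = 0.964). Scap read 10.55 to 10.57 in the arrays labelled mutant and 10.52 to 10.58 in the arrays labelled control, a difference of 0.01 (95% interval -0.09 to 0.11). Srebf1 and Srebf2, which encode the SREBP factors themselves, differed by 0.05 (95% interval -0.11 to 0.21) and 0.10 (-0.02 to 0.23), with adjusted p of 0.698 and 0.329. A probe set for Srebf1 does not separate its transcript forms, and an RNA level does not show how much SREBP is processed. Stard4, a carrier that moves sterol between membranes and is itself an SREBP target, read 9.01, 9.17, 9.24 and 8.94 in the arrays labelled mutant, against 9.19, 9.48, 9.44 and 9.03 in the arrays labelled control. Its difference of -0.19 did not pass (adjusted p = 0.338), and the groups overlapped.

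Promoter sequence is shown for the 4 genes that passed and have an entry in the RefSeq promoter table (build GRCm38.p6), and for Hmgcs1 as a sterol enzyme that did not pass. Each window runs 5′ to 3′ on the gene's strand from 250 bases before its start to 50 after. Capitals mark CCAAT or its reverse complement ATTGG, which factor NF-Y binds, CACGTG, an E-box, and TCACNCCAC, letters of a sterol regulatory element.
Idi1 promoter, chr13:8885356-8885655, plus strand: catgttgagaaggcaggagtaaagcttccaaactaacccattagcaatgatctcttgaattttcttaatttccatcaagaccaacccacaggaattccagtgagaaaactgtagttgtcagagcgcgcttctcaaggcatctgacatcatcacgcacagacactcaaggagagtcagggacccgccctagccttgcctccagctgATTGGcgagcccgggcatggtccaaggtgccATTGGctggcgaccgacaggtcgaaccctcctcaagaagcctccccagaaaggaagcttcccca
Msmo1 promoter, chr8:64733529-64733828, minus strand: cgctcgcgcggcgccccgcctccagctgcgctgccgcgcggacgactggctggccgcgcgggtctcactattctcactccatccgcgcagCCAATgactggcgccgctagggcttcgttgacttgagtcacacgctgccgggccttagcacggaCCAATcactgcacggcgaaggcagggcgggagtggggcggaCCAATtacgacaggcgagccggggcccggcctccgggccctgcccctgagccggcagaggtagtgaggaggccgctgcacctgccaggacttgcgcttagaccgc
Hsd17b7 promoter, chr1:169969156-169969455, minus strand: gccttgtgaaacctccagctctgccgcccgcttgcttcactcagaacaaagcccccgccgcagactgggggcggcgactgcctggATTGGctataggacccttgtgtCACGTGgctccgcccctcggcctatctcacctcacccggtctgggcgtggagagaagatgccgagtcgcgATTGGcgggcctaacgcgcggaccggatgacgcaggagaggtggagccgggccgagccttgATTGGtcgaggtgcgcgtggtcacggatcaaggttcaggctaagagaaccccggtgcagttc
Insig1 promoter, chr5:28071162-28071461, plus strand: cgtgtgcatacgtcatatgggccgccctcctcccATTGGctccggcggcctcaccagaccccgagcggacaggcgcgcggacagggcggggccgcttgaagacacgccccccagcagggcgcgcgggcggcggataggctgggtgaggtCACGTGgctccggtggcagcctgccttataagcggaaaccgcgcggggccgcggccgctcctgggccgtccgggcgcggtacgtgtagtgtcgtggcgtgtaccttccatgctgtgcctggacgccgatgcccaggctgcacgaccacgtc
Hmgcs1 promoter, chr13:119690101-119690400, plus strand: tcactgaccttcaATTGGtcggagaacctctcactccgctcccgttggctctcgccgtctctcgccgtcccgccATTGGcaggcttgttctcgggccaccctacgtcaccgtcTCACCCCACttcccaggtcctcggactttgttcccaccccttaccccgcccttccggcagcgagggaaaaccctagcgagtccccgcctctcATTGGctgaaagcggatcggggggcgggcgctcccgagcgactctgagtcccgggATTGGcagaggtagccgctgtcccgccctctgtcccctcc

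All 4 of the genes that passed and have a window held CCAAT letters, Msmo1 and Hsd17b7 at 3 places each, Idi1 at 2 and Insig1 at 1. Sqle, Fads1 and Tm6sf2 passed as well but have no entry in the promoter table, so their promoters were not read. Hmgcs1 held them at 4 places and was the 1 gene among those with a window that held the sterol element letters, at position -137 counted from the start at 0. Hsd17b7 and Insig1 each held CACGTG, at -143 and -101. Across the 26 listed genes with a window, Acat2 included, 21 (80.8%) held CCAAT on either strand, against 41.1% of 27025 genes with a window. TCACNCCAC was in 1 of 26 (3.85%, against 1.44% of all genes) and CACGTG in 6 of 26 (23.1%, against 8.09%). ACGTG, the core that HIF binds, is contained in CACGTG and was in 8 of 26 (30.8%, against 21.8%). These are letter matches in a short window, and binding was not measured. CCAAT was held by genes that passed and by genes that did not, Lss and Srebf2 among them.

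In the fatty acid branch Fads1, the delta-5 desaturase that makes arachidonic acid, was the 1 of 9 genes that passed. It read 11.78, 11.83, 11.90 and 11.84 in the arrays labelled mutant, against 11.54, 11.48, 11.53 and 11.32 in the arrays labelled control. The groups were well apart, by more than the spread within either. The log2 difference was 0.37 ± 0.0623 (standard error), 1.29-fold, with a limma adjusted p = 0.00642, and all 18 alternative fits kept the call. Fads2, the delta-6 desaturase of the same route, had separate groups too, 12.12 to 12.24 in the arrays labelled mutant and 11.87 to 12.09 in the arrays labelled control. Its difference of 0.17 did not pass (adjusted p = 0.135), though it did after quantile normalization (0.0427).

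The enzymes that make palmitate did not pass the test. Fasn, fatty acid synthase, read 10.002, 10.16, 10.28 and 10.19 in the arrays labelled mutant, against 10.29, 10.01, 10.08 and 9.996 in the arrays labelled control, a difference of 0.07 (95% interval -0.12 to 0.25, limma adjusted p = 0.680). Acaca, acetyl-CoA carboxylase 1, differed by 0.11 (adjusted p = 0.426), and by 0.14 on its dimmer probe set. Acly, which supplies cytosolic acetyl-CoA from citrate to both branches, differed by 0.20 (95% interval 0.01 to 0.39, adjusted p = 0.216). Each of these had overlapping groups.

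The stearoyl-CoA desaturases, which turn saturated into monounsaturated fatty acids, had differences of opposite sign, and neither passed. Scd2 read 10.65, 10.73, 10.98 and 11.20 in the arrays labelled mutant, against 11.20, 11.27, 11.44 and 11.13 in the arrays labelled control, and mutant array 4 alone reached the control range. Its difference was -0.37 (limma adjusted p = 0.104), and it passed without mutant array 4 (-0.47, adjusted p = 0.0282) and without mutant arrays 3 and 4 (-0.57, 0.0136). Scd1 read 12.39 to 12.69 in the arrays labelled mutant and 11.96 to 12.55 in the arrays labelled control. Its difference was 0.17 (95% interval -0.12 to 0.45, adjusted p = 0.490), so its direction is not settled. It was 0.04 without control array 4, the lowest of the arrays labelled control. The genes are close relatives, and which probes they share was not given. The elongases Elovl5 and Elovl6 differed by 0.03 (95% interval -0.10 to 0.17) and -0.04 (-0.22 to 0.13), with adjusted p of 0.770 and 0.771.

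Tm6sf2, a membrane protein of the endoplasmic reticulum that helps load lipid into lipoproteins in liver and gut, had the largest difference of the set. It read 10.12, 10.57, 10.26 and 10.20 in the arrays labelled mutant, against 9.27, 8.94, 8.84 and 9.26 in the arrays labelled control. The gap between the groups was wider than the range of either. The log2 difference was 1.21 ± 0.124 (standard error), 2.32-fold, with a limma adjusted p = 0.000523, and all 18 alternative fits kept the call. Mttp and Apob, the transfer protein and the scaffold of those lipoproteins, differed by -0.11 (adjusted p = 0.675) and 0.30 (0.636). Apob read 8.65 on mutant array 4 and 7.12 to 7.36 on the other arrays labelled mutant, against 6.84 to 7.71 on the arrays labelled control. Both were named after their values were seen.

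**Figure D3:**
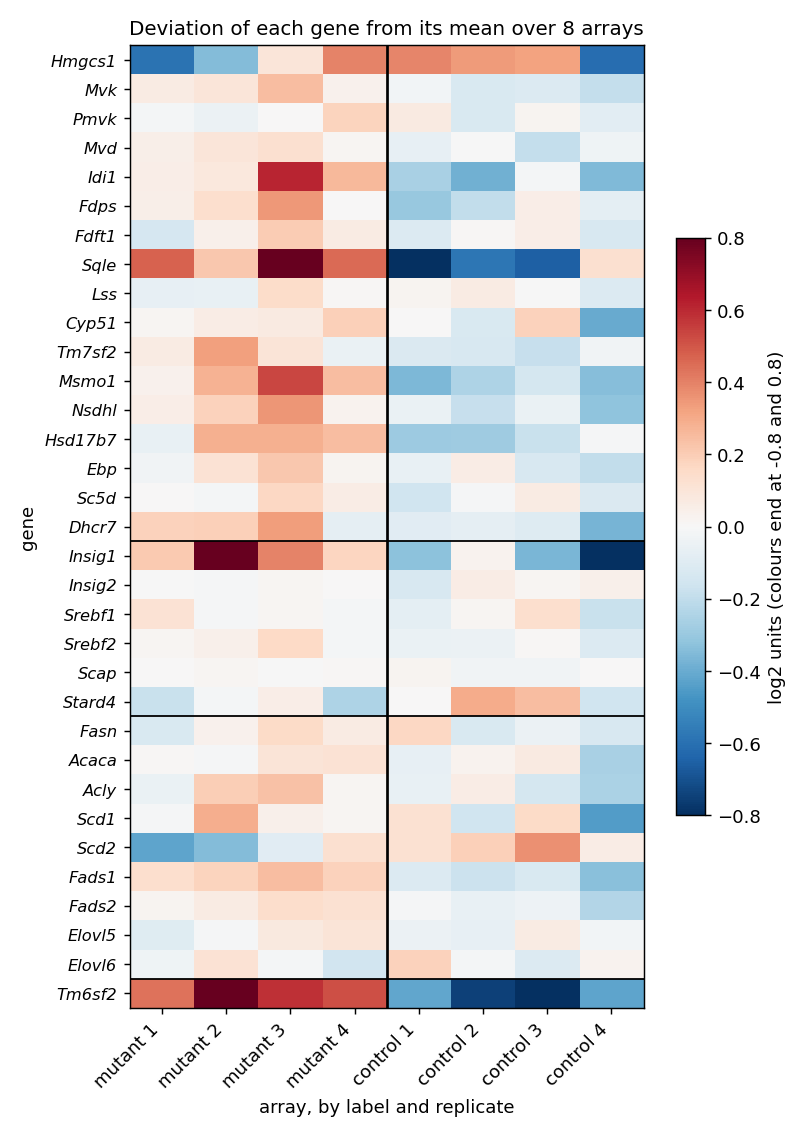
Deviation of each of the 33 genes (rows, by role, with lines between roles) from its own mean over 8 arrays, in log2 units, with the 4 arrays labelled mutant at left and the 4 labelled control at right. Mutant array 3 is the reddest column among the sterol enzymes, and control array 4 is the lowest of the 4 control arrays for 19 of the 33 genes.

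Within a label the same arrays were often the highest or the lowest across these genes. Mutant array 3 was the highest of the arrays labelled mutant for 12 of 17 sterol enzymes (70.6%, against 23.8% of all genes) and for 4 of 9 fatty acid enzymes. Mutant array 1 was the lowest of its group for 8 of 17 sterol and 7 of 9 fatty acid enzymes (47.1% and 77.8%, against 25.5% of all genes). Control array 4 was the lowest of the arrays labelled control for 8 of 17 sterol and 7 of 9 fatty acid enzymes (47.1% and 77.8%, against 26.8% of all genes). As a mean deviation from the 8-array mean, the sterol enzymes stood at 0.01, 0.10, 0.27 and 0.12 log2 units in the arrays labelled mutant, against -0.13, -0.12, -0.06 and -0.19 in the arrays labelled control. The fatty acid enzymes stood at -0.06, 0.06, 0.10 and 0.07 in the arrays labelled mutant, against 0.03, -0.04, 0.02 and -0.18 in the arrays labelled control. The sterol means of the groups did not overlap, and the fatty acid means did. The sterol means came closest on mutant array 1 and control array 3, and single genes weighed on them there. Sqle deviated by 0.47 and -0.66 on those arrays, and Hmgcs1 the other way, by -0.59 and 0.32. These means are given as a description, with no test.

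**Figure D4:**
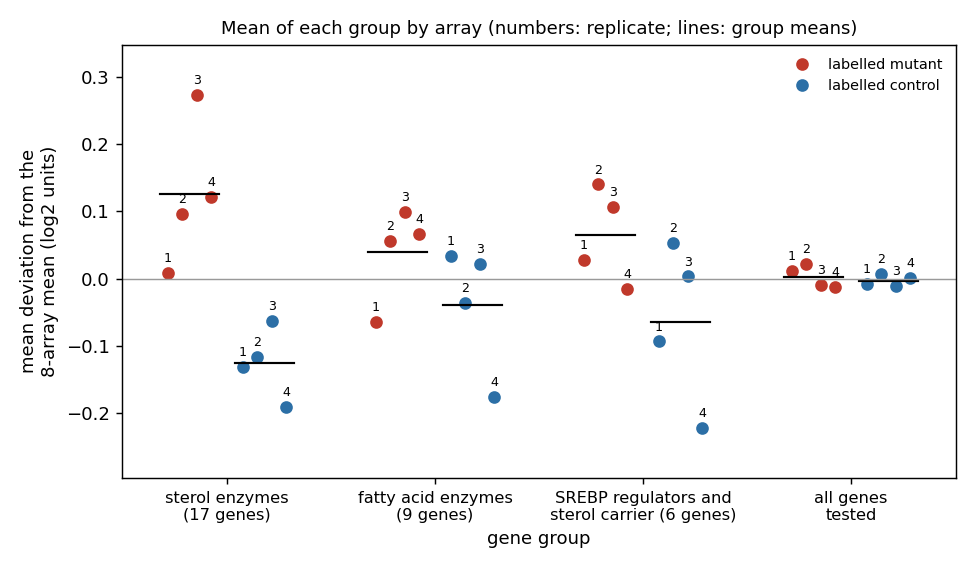
Mean deviation from the 8-array mean, in log2 units (vertical axis), of the 17 sterol enzymes, 9 fatty acid enzymes, 6 regulators and all genes tested on each array. Red points are arrays labelled mutant and blue points arrays labelled control, numbers give the replicate and lines the group means. Sterol means are 0.01 to 0.27 against -0.19 to -0.06, while fatty acid means overlap.

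Neighbouring parts of the pathway were read from further lists of 64 genes, of which 54 were measured, 2 rose and 3 fell, shares near the 2.59% and 4.64% of all genes, so the counts say nothing particular about these lists. Of 8 measured genes of other sterol and isoprenoid steps 0 passed, the largest difference being that of Nus1, a dolichol synthesis gene (0.14, limma adjusted p = 0.209). Of 10 genes of SREBP processing and sterol-controlled degradation 0 passed, and Pgrmc1, a sterol-binding membrane protein, had the largest difference (0.21, adjusted p = 0.0649). Among 9 genes of sterol uptake and trafficking Scarb1, the receptor that takes cholesterol from high-density lipoprotein, fell. It read 8.97, 8.98, 8.82 and 8.82 in the arrays labelled mutant, against 9.63, 9.73, 9.66 and 9.43 in the arrays labelled control, with no overlap (difference -0.72, adjusted p = 0.000596). The other 8 did not pass. Among 7 genes of LXR signalling and sterol efflux Abcg1, a sterol exporter, fell by 0.39 log2 units (adjusted p = 0.0471), with overlapping groups. It did not pass with the replicate block (0.0929), after quantile normalization (0.0656), or when any of mutant arrays 2, 3 and 4 or control arrays 2, 3 and 4 was dropped (0.0780 to 0.131).

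Of 20 further genes of fatty acid and triglyceride synthesis 2 rose, 1 fell and 17 did not pass. Me1, the malic enzyme that supplies NADPH for both branches, read 11.65, 11.78, 11.80 and 11.74 in the arrays labelled mutant, against 12.60, 12.30, 12.64 and 12.41 in the arrays labelled control. The groups were far apart, and the difference was -0.74 (limma adjusted p = 0.000696). Acacb, the acetyl-CoA carboxylase whose product restrains fatty acid oxidation, rose by 0.26 (adjusted p = 0.0429), a call that ended when mutant array 2, 3 or 4, or else any control array, was dropped (0.0620 to 0.115). Elovl1, an elongase of very long chains, rose by 0.23 (adjusted p = 0.0470). That call was lost with the replicate block (0.0523), with arrays centred on their medians (0.0520), and when mutant array 1, 3 or 4, or else any control array, was dropped (0.0594 to 0.123).

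Markers of cell types that could bring lipid synthesis genes into a kidney sample were read beside these values. The shares over all genes to set beside their counts are 2.59% passing as higher and 4.64% as lower. The 8 measured adipocyte markers had a mean per array of 7.65 to 8.24 in the arrays labelled mutant and 7.89 to 8.47 in the arrays labelled control. Of them Fabp4, also an endothelial gene, fell by 0.68 log2 units (limma adjusted p = 0.00801, and 0.0633 without mutant arrays 1 and 2), and 7 did not pass. Adipoq, which defines the type, read 6.57 to 7.56 against 6.84 to 7.90. The 8 adrenal cortex markers had means of 6.15 to 6.29 against 6.04 to 6.24, around the lower quartile of the arrays (6.21 to 6.28), and 0 passed. Of 10 proximal tubule markers Slc22a8 (0.30, adjusted p = 0.0429) and Aqp1 (0.29, adjusted p = 0.00749) rose and 8 did not pass, with list means of 12.19 to 12.47 in the arrays labelled mutant and 12.03 to 12.23 in the arrays labelled control. The Slc22a8 call ended when any of mutant arrays 2, 3 and 4 or control arrays 1, 3 and 4 was dropped (0.0699 to 0.121). Of 10 markers of later nephron segments Calb1, a distal tubule calcium binder, rose by 0.54 (adjusted p = 0.0139, and 0.0884 without mutant arrays 1 and 2) and 9 did not pass, with list means of 11.11 to 11.24 against 10.96 to 11.11. The 9 macrophage and dendritic cell markers ran from 8.28 to 8.99 against 8.58 to 8.84, and 0 passed. The part of tubule and endothelial marker shifts in the differences of the synthesis genes was not tested.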

How the data were processed

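The authors' deposited table gave log2 expression for 35556 probe sets on 8 arrays, 1 column per array. Per the submitters' processing notes limma was used, and its version, the summarization, the background correction and the genome build are not given in the sources used here. Values ran from 1.92 to 14.66, upper quartiles from 9.08 to 9.16, and they were not transformed. The scale was taken from the values, and any normalization between arrays is not stated. Compression near the floor would understate differences of dim genes.

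Gene names came from the platform annotation, updated through Entrez identifiers and accessions to the RefSeq gene table (GRCm38.p6), used for names only. Of the probe sets 21789 named 1 gene, 1621 several and 12146 were not listed. Each gene was read from its brightest probe set by the 8-array mean, which gave 19936 genes. The test was limma's (version 3.58.1, R 4.3.3; lmFit and eBayes, two-sided), on arrays labelled mutant minus those labelled control, with Benjamini-Hochberg adjustment over all genes. Confidence intervals are 95% and unadjusted. The fit was checked on simulated data.

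Same-numbered arrays of the groups deviated together from their group means (correlations 0.138, 0.153, 0.295 and 0.175 over genes), above 0.1 for every number, as it was for mutant array 2 with control array 1 (0.111) and no other pair of different numbers. No label says that a number marks a pair. Main values come without a block, and blocked values are given where they change a call. Alternatives were quantile normalization, median centring, the upper 60% of genes by mean, a trended and robust variance model, array weights, averaging a gene's probe sets, the replicate block, a threshold of 0.01, leaving out each array, and leaving out mutant arrays 1 and 2 or 3 and 4. The genes, lists and tests were chosen with earlier results of these data known. The rule for named genes took all 34 listed genes, Vhl and the HIF targets (given as a count with 2 examples), from each further pathway list the genes that passed (up to 4) or the largest difference where none did, and from each cell type list up to 3 that passed. Adipoq, Ptprc, Mttp and Apob fall outside it and were chosen after their values were seen. Some listed genes had no probe set naming them alone and were not analysed here.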

Additional observations from a re-analysis of the deposited data

Results flagged for a closer look

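Of 66 groups of 4 arrays (33 genes, both labels) 4 held an array that stood apart from the others of its group, its gap to the nearest exceeding Dixon's 95% critical share of the group's range, and chance gives about 1 such group in 20. Hmgcs1 read 10.55 on control array 4, against 11.48 to 11.55 on the other control arrays. Dhcr7 read 8.72 on control array 4, against 8.99 to 9.03 on the others. Hsd17b7 read 9.32 on mutant array 1, against 9.63 to 9.67 on the other arrays labelled mutant. Scd1 read 12.69 on mutant array 2, against 12.39 to 12.44 on the others.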

How the results depend on the processing

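Each of the 33 genes was refitted under 18 alternatives, 594 values in all. Of these 543 kept both direction and side of the threshold, 27 lost a call, 12 gained a call and 12 changed sign. Msmo1, Fads1 and Tm6sf2 kept their calls in all 18, and Sqle in 16. Over all genes 1442 passed, 602 at a threshold of 0.01, and 902 to 1368 when an array was left out (917 without mutant array 2, 903 without control array 2, 902 without control array 3). With mutant arrays 3 and 4 both left out it was 1561, more than with all 8 arrays, and with 1 and 2 left out it was 962. The 4 calls among sterol enzymes became 7 after quantile normalization, 1 at the threshold of 0.01, 1 without mutant arrays 3 and 4, and 2 to 4 when an array was left out (2 when mutant array 2, mutant array 3, control array 1 or control array 2 was dropped). The 1 call among fatty acid enzymes became 2 after quantile normalization and 2 without mutant arrays 3 and 4, where Scd2 fell, and was 1 to 2 when an array was left out (2 without mutant array 4). The 1 call among regulators, Insig1, became 0 with the trended and robust model, at the threshold of 0.01, and without mutant arrays 1 and 2 or 3 and 4, and was 0 to 1 when an array was left out. With the replicate block the sterol count was 6, since Nsdhl (0.0344) and Dhcr7 (0.0168) gained calls, and that block changed no other call among the 33 genes. Outside them, Vhl (0.0558), Abcg1 and Elovl1 lost theirs. All sign changes were of genes that did not pass. Without mutant arrays 1 and 2 Hmgcs1 was at 0.137. Without mutant arrays 3 and 4 Pmvk was at -0.00132, Fdft1 -0.00146, Lss -0.0567, Insig2 -0.00307, Fasn -0.0127, Elovl5 -0.0362 and Elovl6 0.0168. Leaving out single arrays, Lss ran from -0.0323 to 0.0398, Insig2 from -0.0369 to 0.0267 and Elovl6 from -0.0897 to 0.00913. Fits that dropped arrays rest on fewer samples. The cause of the changes was not tested.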
